A study of Mus musculus with 21 samples.

Results

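The 42 genes described here belong to the machinery that copies and divides the genome, and were chosen by symbol from 34236 gene symbols in a count table of macrophages sorted from mouse kidneys. They were followed in 21 libraries of 3 populations, each from kidneys of sham-operated mice (Sham) and from kidneys with renal artery stenosis (RAS), in which a cuff narrows the right renal artery. CD11chiMϕ and CD11cloMϕ, both labelled as derived from monocytes, gave 3 Sham and 4 RAS libraries each, and kidney resident macrophages (KRM) gave 4 Sham and 3 RAS libraries. All mice were male C57BL/6J without a transgene or deletion, with an age of 24 weeks in the labels, and the study's methods place surgery at 20 weeks and collection 28 days later. Cells were F4/80+CD64+, were split by CD11b and CD11c, passed a gate that removes T, B and NK cells, erythrocytes and granulocytes, and were sorted directly into lysis buffer, in about 5 hours by the labels. The study counts mice for the Sham groups in the same numbers as the Sham libraries, but the labels tie no library to a mouse, so p-values measure the spread between libraries.

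Cells that divide license their replication origins in G1, copy DNA in S phase and separate the copies in mitosis. Origin licensing loads the MCM helicase with the help of Cdc6 and Cdt1, and Pcna is the clamp that holds the polymerase on DNA. E2F factors drive S phase genes, whereas a later wave that includes cyclin B, survivin and the mitotic kinesins is controlled by Foxm1 and B-Myb through the CHR promoter element, with NF-Y at CCAAT boxes. Tissue macrophages, kidney resident ones among them, can divide in place, while monocytes mostly leave the cycle before they enter tissue. In bulk RNA, a change in the share of dividing cells and a change in RNA per cell cannot be told apart.

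The members fell into 7 roles: 10 genes of origin licensing and replication, 3 of nucleotide supply, 4 regulators of G1/S and transcription, 6 mitotic cyclins with Cdk1 and the proteolysis genes Cdc20 and Ube2c, 7 mitotic kinases and checkpoint genes (with Birc5, survivin), 10 spindle, motor, kinetochore and midzone genes, and 2 genes of chromosome structure and the proliferation mark (Top2a and Mki67). All 42 had 1 line each in the count table. The last 4 roles hold 25 genes and are called the mitotic members here.

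RefSeq promoter windows of the GRCm38.p6 build, from 250 bases before to 50 bases after the gene start, were found for 34 members and were not for Aurkb, Ccna2, Ccne2, Foxm1, Gins2, Kif20a, Mcm4 and Tpx2. Each window was searched on both strands for the CHR element (TTTGAA), the CCAAT box (CCAAT) and the E2F site (TTTCCCGC, TTTGGCGC, TTTCGCGC or TTTGCCGC). The 100 bases before the start are shown for 4 mitotic members and 2 MCM genes, to show how the motifs lie near the start: CHR elements fall in the stretches of Top2a, Kif11 and Mki67 and an E2F site in that of Mcm6, while those of Ccnb2 and Mcm3 hold only CCAAT boxes. Capitals mark the motifs, which appear as their reverse complement where they lie on the other strand. The windows are, in order, chr11:99024190-99024289 (minus strand), chr19:37376282-37376381 (plus strand), chr7:135716380-135716479 (minus strand), chr9:70421555-70421654 (minus strand), chr1:128359706-128359805 (minus strand) and chr1:20820313-20820412 (minus strand).
Top2a: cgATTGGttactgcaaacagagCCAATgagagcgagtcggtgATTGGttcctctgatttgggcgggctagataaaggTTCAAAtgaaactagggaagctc
Kif11: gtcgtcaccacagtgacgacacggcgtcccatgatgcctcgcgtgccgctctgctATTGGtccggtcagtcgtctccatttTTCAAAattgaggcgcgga
Mki67: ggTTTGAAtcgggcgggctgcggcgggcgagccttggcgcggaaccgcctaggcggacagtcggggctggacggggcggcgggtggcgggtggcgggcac
Ccnb2: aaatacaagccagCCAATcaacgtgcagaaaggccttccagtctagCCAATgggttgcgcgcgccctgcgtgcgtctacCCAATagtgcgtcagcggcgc
Mcm6: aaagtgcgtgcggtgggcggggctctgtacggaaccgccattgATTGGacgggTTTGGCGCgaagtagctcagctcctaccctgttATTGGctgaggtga
Mcm3: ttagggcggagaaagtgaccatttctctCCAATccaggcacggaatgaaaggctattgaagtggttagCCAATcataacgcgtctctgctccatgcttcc

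Of the 21 mitotic members with a window, 16 (76.2%) held a CHR element, against 18.1% of all 27025 promoters. Of the 13 members of the other 3 roles, 1 held it (Mcm2). The E2F site was in 6 of those 13 (46.2%), in 1 of the 21 mitotic members (Cdk1) and in 2.3% of all promoters. CCAAT boxes were common in both groups, in 18 of 21 and 8 of 13 windows, against 37.9% of all promoters. In the printed stretch of Top2a a CHR element starts 23 bases before the gene start and CCAAT boxes start 58, 78 and 98 bases before it. Ccnb2 has 3 CCAAT boxes in the printed stretch, and its CHR elements lie outside it, 167 bases before and 5 bases past the start. A match describes letters in the window and is no measure of binding.

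Values below are CPM, the counts scaled to library size with TMM factors, where 1 count is worth between 0.0499 and 0.159 CPM and a count of 0 allows up to 3 counts, or 0.15 to 0.476 CPM, by counting error alone. Library totals ran from 6891177 to 18592427 counts. The order of the members differed between groups. Averaged over all libraries, Pcna was the highest member at 87.9 CPM and was so in the mean of each group, followed by Mcm6 at 60.4, Mcm3 at 50.1, Mcm4 at 45.4 and Mcm5 at 41.3 CPM. The lowest were Ttk, a spindle checkpoint kinase, at 1.34 CPM, the cyclin E genes Ccne2 at 2.44 and Ccne1 at 2.51, the licensing factor Cdc6 at 3.21 and the microtubule depolymerase Kif2c at 3.26 CPM. In CD11chiMϕ RAS, Mki67 at 99.5 and Top2a at 90.8 CPM stood above Mcm3 and Mcm4, and in CD11cloMϕ Bub1 was at a mean of 0.103 CPM in Sham and 0.143 CPM in RAS. Per kilobase of exon the order at the top over all libraries was Pcna at 57.9, Mcm3 at 16.5 and Mcm6 at 13.8 CPM per kb. The 10 licensing and replication genes made up most of the summed level of the 42 in every CD11cloMϕ and KRM library. Copies of Pcna and Ccnb2 listed in the table took at most 1 and 10 counts per library, so a share of those reads cannot be assigned with certainty.

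**Figure D1:**
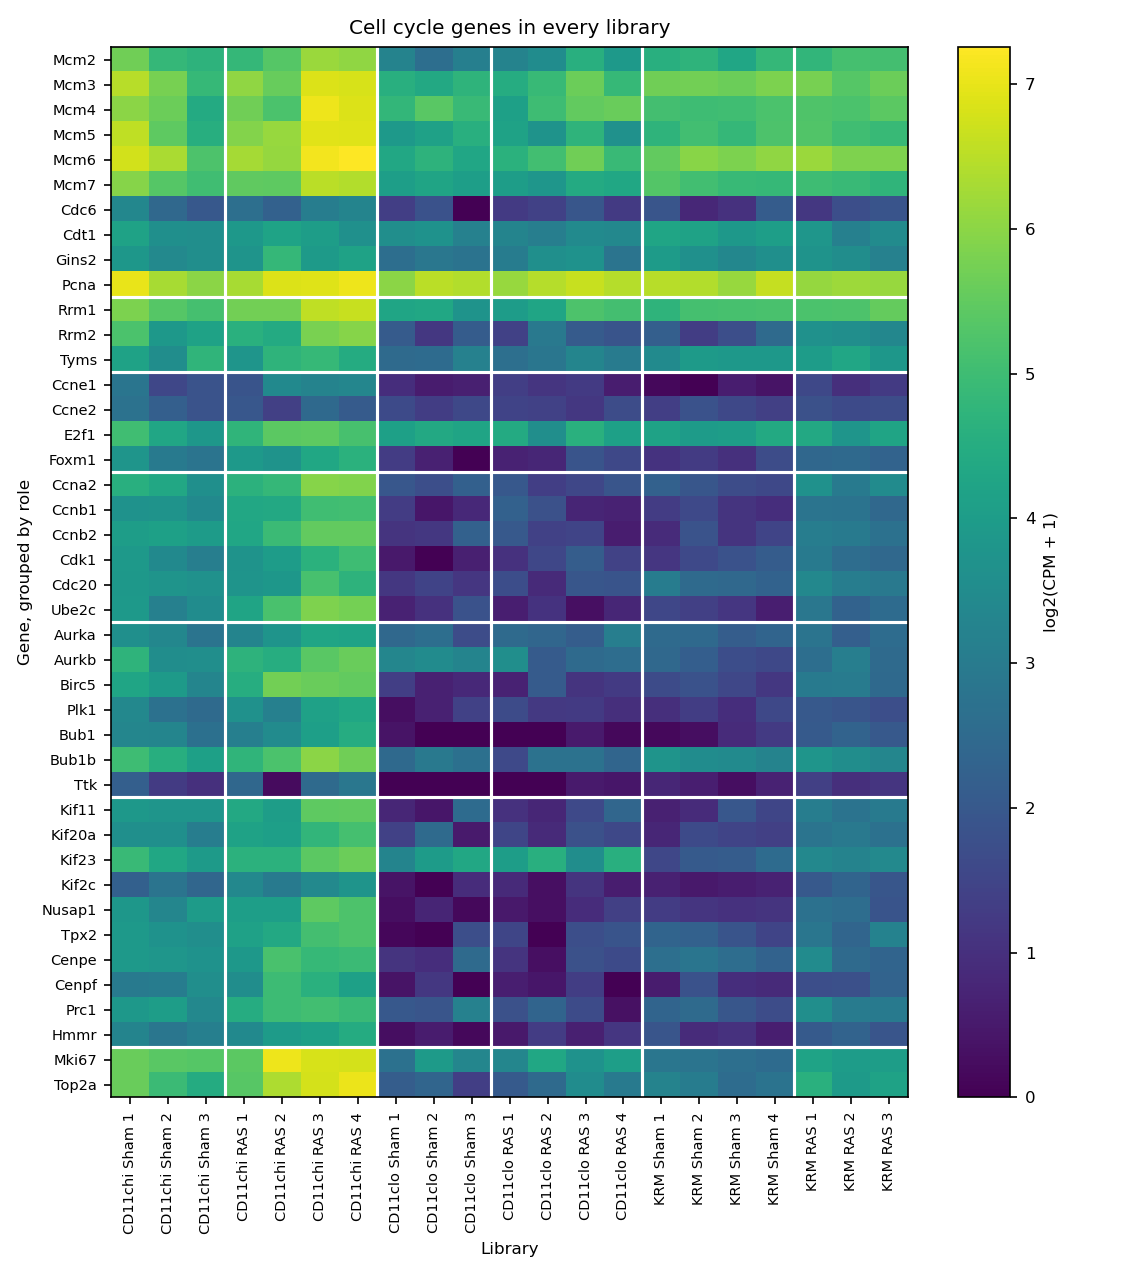
Heat map of log2(CPM + 1) for the 42 genes (rows, grouped by role between white lines) in the 21 libraries (columns, grouped by population and treatment). The CD11chi columns (CD11chiMϕ) are brightest, and in KRM the rows of Mki67, Top2a, Ccnb1, Ccnb2 and Kif2c are brighter in each of the 3 RAS columns than in the 4 Sham columns, while those of Mcm3, Mcm7 and Pcna overlap.

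Some libraries stood apart. The column of KRM RAS replicate 1 in the deposited log2 table correlated with its count column at r = 0.09 over genes, against 0.915 or more for the other libraries, so its counts were used and results are also given without it. Replicate 3 of each Sham group carried RNA of proximal tubule, with a summed level of 6 marker genes of 10100, 2290 and 1370 CPM in CD11chiMϕ, CD11cloMϕ and KRM, and in CD11chiMϕ Sham 3 the top 10 genes took 20.5% of counts. A list of 8 macrophage genes (Adgre1, Fcgr1, Csf1r, C1qa and others) summed to between 2690 and 20100 CPM in the libraries. No pair of replicates agreed within counting noise.

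The comparison of RAS with Sham asks how each population responds to the narrowed artery. In KRM, 15 of 42 members were higher in RAS kidneys and 0 were lower (edgeR's quasi-likelihood test, adjusted p under 0.05), where 7.77% of all 12852 genes tested were higher and 1.94% were lower. The genes called were the mitotic cyclins Ccna2, Ccnb1 and Ccnb2, the ubiquitin-conjugating enzyme Ube2c, survivin (Birc5), the motors Kif11, Kif20a, Kif23 and Kif2c, the spindle proteins Nusap1 and Prc1, Mki67, Top2a, the ribonucleotide reductase subunit Rrm2 and the transcription factor Foxm1. In 24 of the 42 the 3 RAS libraries all lay above the 4 Sham libraries, which held for 10.5% of all genes. The median log2 fold change of the members was 1.24 (range -0.54 to 2.71), with a median of 0.016 over all genes.

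Mki67, the common mark of dividing cells (GRCm38, chr7:135689784-135716361, minus strand), was at 6.14, 5.93, 5.33 and 4.81 CPM in the KRM Sham libraries and at 17.4, 15.1 and 15.5 CPM in the RAS libraries. All RAS libraries were above all Sham libraries, by 3.09-fold (log2 1.63, standard error 0.188, adjusted p = 0.0117). Top2a, the topoisomerase that untangles chromosomes (chr11:98992943-99024189, minus strand), was at 8.54, 7.3, 4.89 and 5.75 CPM in Sham and 23.3, 14.5 and 17.3 CPM in RAS. That difference was 2.99-fold (log2 1.58, standard error 0.26, adjusted p = 0.0228), again without overlap. Kif2c (chr4:117159639-117182639, minus strand), which frees wrongly attached microtubules from kinetochores, changed most. It was at 0.602, 0.423, 0.499 and 0.627 CPM in Sham and 3.04, 4.08 and 2.84 CPM in RAS, a 6.57-fold difference (adjusted p = 0.0154). Kif2c had 4 to 10 counts per Sham library, so the size of its fitted fold rests on few reads. Under the alternatives run its log2 fold change was between 0.49 and 2.79.

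The cyclins that bring cells into mitosis moved alike. Ccnb1 was at 1.44, 2.01, 1.15 and 0.941 CPM in KRM Sham and at 5.89, 5.73 and 4.49 CPM in KRM RAS, 4.16-fold higher (adjusted p = 0.0242). Ccnb2 was 4.46-fold higher (adjusted p = 0.028) and Ccna2, the cyclin of S phase and G2, 3.84-fold higher (adjusted p = 0.0231). Their partner Cdk1 was at 1.2 to 3.35 CPM in Sham and 4.49 to 6.78 CPM in RAS, also without overlap, but did not pass (log2 1.35, standard error 0.384, adjusted p = 0.0624). In this role 4 of 6 genes were called.

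Among motors and spindle genes 6 of 10 were called. Kif11, which pushes the spindle poles apart, was 4.42-fold higher (adjusted p = 0.0466) and Kif20a, a motor of the spindle midzone, 4.17-fold higher (adjusted p = 0.027). The kinetochore motor Cenpe overlapped between groups (log2 0.42, standard error 0.375, adjusted p = 0.441). Of the 7 kinase and checkpoint genes 1 was called, Birc5, at 1.25 to 2.54 CPM in Sham and 4.58 to 7.03 CPM in RAS (3.35-fold, adjusted p = 0.0291). The checkpoint kinase gene Bub1 was at 0.12 to 1.36 CPM in Sham and 3.11 to 3.99 CPM in RAS without a call (adjusted p = 0.0584). Aurka and Bub1b had log2 fold changes of 0.32 and 0.17.

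Origin licensing and replication genes differed from this pattern: 0 of 10 were called by edgeR, with a median log2 fold change of 0.10 (range -0.54 to 0.50) and an unadjusted p under 0.05 for 3 of them, near the 34.0% of all genes. Their summed level was 342 ± 30.8 CPM (SD, n = 4) in Sham and 332 ± 17.1 CPM (SD, n = 3) in RAS. Pcna was at 87.5, 84.9, 69.1 and 97.6 CPM in Sham and 67.5, 71.6 and 69.8 CPM in RAS, with overlap (log2 -0.17, standard error 0.132, adjusted p = 0.373). Mcm4 was at 31.3 to 35.6 CPM in Sham and 36 to 41.9 CPM in RAS, without overlap and without a call (log2 0.34, adjusted p = 0.0971). Mcm5 was at 25.1 to 36.9 CPM in Sham and 28.9 to 37.9 CPM in RAS (log2 0.22, adjusted p = 0.37). Cdt1, the licensing factor that is destroyed once S phase begins, was the one member whose RAS libraries all lay below Sham, which held for 17.1% of all genes, at 13, 7.9 and 10.3 against 18.4, 17.1, 13.7 and 15.8 CPM, without a call (log2 -0.54, adjusted p = 0.127). Whether the roles differ from each other was not tested.

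Regulators of G1/S and nucleotide supply were split. Rrm2, the subunit of ribonucleotide reductase that is made in S phase, was at 3.61, 1.48, 2.34 and 4.71 CPM in Sham and 11.7, 10.9 and 9.25 CPM in RAS, 3.78-fold higher (adjusted p = 0.0308). Its partner Rrm1 had a log2 fold change of 0.40 (adjusted p = 0.139) and the thymidylate synthase Tyms one of 0.39 (adjusted p = 0.211). Foxm1, a driver of the mitotic gene wave, was at 1.08, 1.38, 0.997 and 2.2 CPM in Sham and 4.32, 4.6 and 3.94 CPM in RAS, 3.28-fold higher (adjusted p = 0.0343). E2f1 stood at 14.9 to 20.1 CPM in Sham and 12.8 to 19.8 CPM in RAS (log2 0.11, adjusted p = 0.727). Ccne1 was at 0 to 0.499 CPM in Sham and 0.955 to 1.96 CPM in RAS (adjusted p = 0.0747), and Ccne2 overlapped (log2 0.33, adjusted p = 0.509).

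The 25 mitotic members together gave 78.7, 78, 64.9 and 62.1 CPM in the KRM Sham libraries and 192, 155 and 152 CPM in the RAS libraries. Divided by the 10 licensing and replication genes, this was a ratio of 0.209 ± 0.0301 (SD, n = 4) in Sham and 0.499 ± 0.041 (SD, n = 3) in RAS, with no overlap between the libraries. CD11cloMϕ had a ratio of 0.326 ± 0.0495 (SD, n = 3) in Sham and 0.327 ± 0.0685 (SD, n = 4) in RAS. In CD11chiMϕ it was 0.882 ± 0.232 (SD, n = 3) and 1.24 ± 0.197 (SD, n = 4), and the groups overlapped. Members with a CHR element had a median log2 fold change of 1.40 in KRM (n = 17, 8 called) and those with a window but without it 0.38 (n = 17, 4 called). Members with an E2F site had a median of 0.22 (n = 7, 0 called). Motif and role go together, so these medians are not separate from the contrast between roles.

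**Figure D2:**
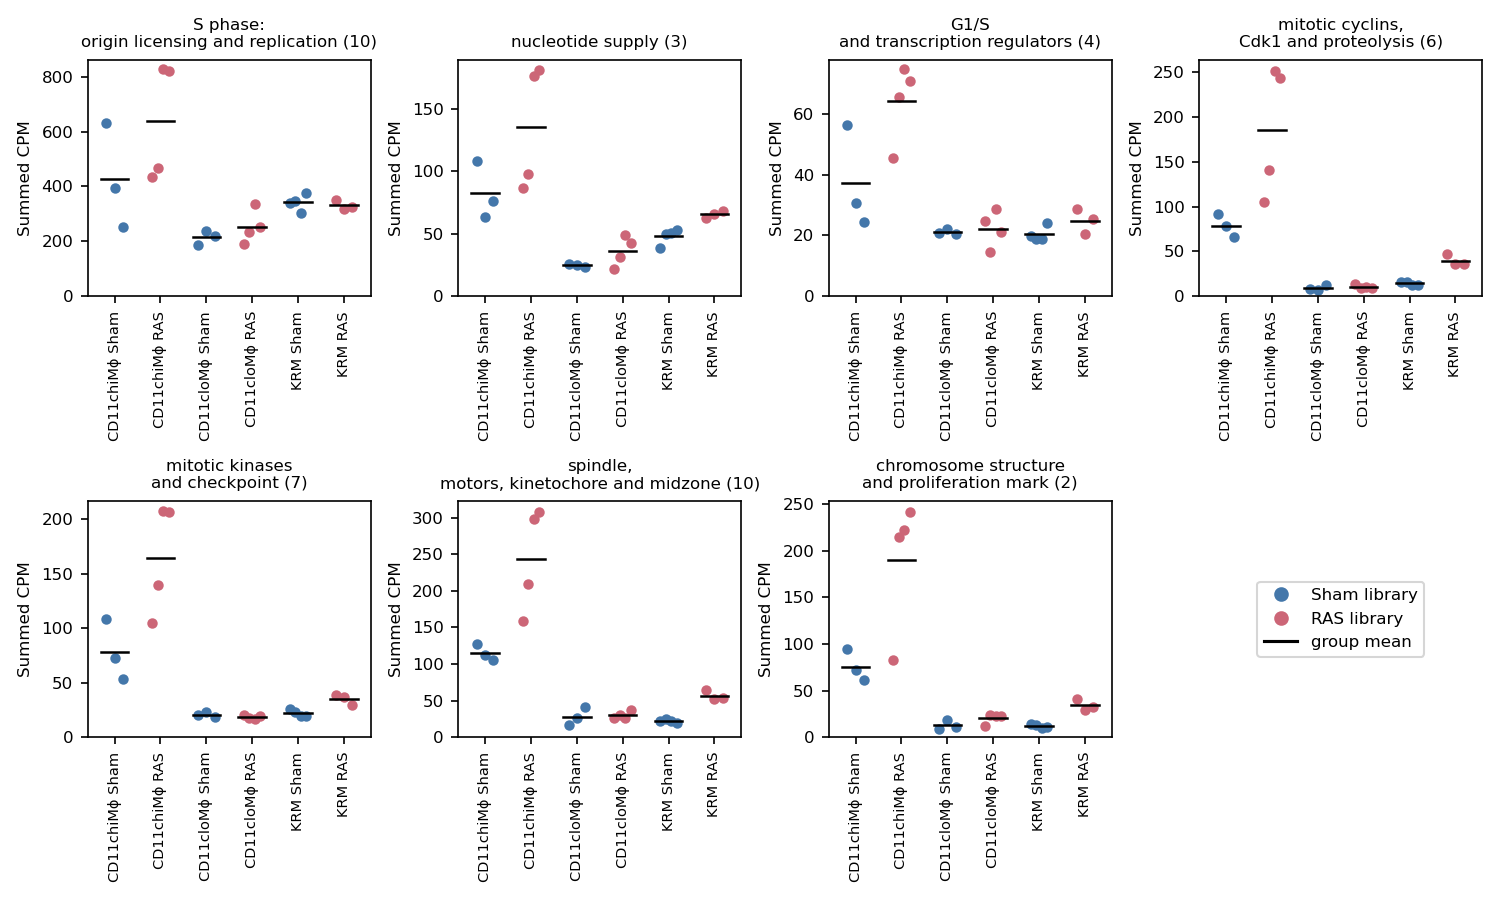
Summed CPM of the members of each role (panels, number of genes in parentheses) in each library (blue Sham, red RAS) with the group mean as a black bar, on axes from 0. In KRM the cyclin, kinase, spindle and proliferation panels show RAS libraries above all Sham libraries, and the licensing and replication panel shows 342 CPM in Sham and 332 CPM in RAS.

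The calls in KRM rested on few libraries. Without KRM RAS 1, 18 members were called (17 higher and Cdt1 lower), all 15 among them, and without KRM Sham 3, 13 were called. Without KRM RAS 2, KRM RAS 3 or KRM Sham 2, 0 were called, and without KRM Sham 1 or KRM Sham 4, 1 was called. With a minimum of 10 counts in every library 9 were called, and limma on the log2 table called 2 (Birc5 and Rrm2), or 14 (11 higher, 3 lower) without KRM RAS 1. The calls over all genes moved in the same settings. Without KRM RAS 1, 3960 genes were higher and 3110 lower of 14088 tested, and limma on the log2 table had 1105 higher and 1494 lower of 14020. On the scale of that table the median log2 fold change of the members was 0.451, and 0.326 without KRM RAS 1, against 1.24 from the counts. With 1 of the 5 libraries left out that gave 0 or 1 members called, 23 to 32 genes were higher and 5 to 11 lower among all genes, and the median log2 fold change of the members was 1.18 to 1.29.

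Markers of other cells moved with RAS in KRM as well. The 7 T and NK cell genes were all called higher and summed to 2.33 to 3.85 CPM in Sham and to 282, 38 and 30.9 CPM in RAS 1, 2 and 3. Defining genes of both lineages were above 0 in the RAS libraries, with Cd3e at 4.94 to 38.7 CPM and Ncr1 at 4.12 to 25.7 CPM. The 5 genes of thick ascending limb and distal tubule summed to 4.18 to 160 CPM in Sham and to 93.8, 3020 and 2260 CPM in RAS, with 2 of 4 tested genes higher. The 6 endothelial genes went from 9.39 to 20.7 CPM to between 14.6 and 174 CPM, with 2 of 4 tested higher, and the 6 fibroblast and pericyte genes from 16.7 to 38.1 CPM to between 37.8 and 346 CPM, with 3 of 5 tested higher. The 3 erythroid genes tested of 5 were also higher (28.9 to 63.4 and 181 to 277 CPM summed), and of 6 dendritic cell genes 3 were higher and 1 lower (83.4 to 108 and 110 to 167 CPM). The collecting duct genes were at 0.523 to 4.44 CPM in Sham and at 4.03, 1410 and 1060 CPM in RAS. The 9 dissociation stress genes summed to 26900 to 41800 CPM in Sham and 17300 to 22100 CPM in RAS, with 3 of 9 lower, and the 6 B and plasma cell genes to 414 to 522 CPM in Sham and to 416, 74.7 and 74.4 CPM in RAS, with 0 of 5 tested called (2 at an unadjusted p under 0.05). The macrophage list was at 14600 to 20100 CPM in Sham and 7440 to 12400 CPM in RAS. The part of these cells and of dissociation stress in the cell cycle result was not tested.

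Of 76 further cell cycle genes, 73 were tested in KRM. Of these 8 were higher and 1 was lower in RAS, where 7.77% of all genes were higher and 1.94% were lower. The largest differences were those of the Cdk4/6 inhibitor gene Cdkn2b (log2 3.21, adjusted p = 0.0321), the mitotic kinase gene Pbk (log2 3.01, adjusted p = 0.038) and the kinetochore gene Nuf2 (log2 2.47, adjusted p = 0.0419). The G1 kinase gene Cdk6 was lower (log2 -1.38, adjusted p = 0.0465). None of the other 7 tested D-type cyclin and G1 kinase genes passed.

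In CD11chiMϕ, 0 of 42 members passed in RAS against Sham with edgeR, and 0% of the 12739 genes tested passed. DESeq2 called 2 members (Ube2c and Birc5), with 179 genes higher and 18 lower of 20233 tested, and limma on the log2 table called 0. An unadjusted p under 0.05 was reached by 19 of 42 members and by 9.79% of all genes. The fitted log2 fold change was above 0 in 41 of 42, the exception being Ccne2, with a median of 0.88 and values up to 1.81 for Ube2c (standard error 0.44, adjusted p = 0.508). In 12 members the 4 RAS libraries all lay above the 3 Sham libraries, which held for 4.36% of all genes. They were Ccna2, Ccnb1, Ccnb2, Ube2c, Birc5, Kif11, Kif20a, Kif2c, Nusap1, Tpx2, Prc1 and Hmmr, each a mitotic member.

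The spread within CD11chiMϕ was wide. Mki67 was at 47.6, 41.6 and 39.7 CPM in Sham and at 42.4, 134, 112 and 110 CPM in RAS, where RAS 1 lay among the Sham libraries (log2 1.12, standard error 0.378, adjusted p = 0.508). Top2a was at 47.4, 30.1 and 21.3 CPM in Sham and 40.2, 80.7, 110 and 132 CPM in RAS, with the same overlap of RAS 1 (log2 1.38, adjusted p = 0.508). Birc5 was at 18.3, 14.6 and 8.91 CPM in Sham and 21.8, 51.2, 47.2 and 44.3 CPM in RAS, without overlap (log2 1.48, adjusted p = 0.508). Ccnb1 was at 9.79 to 12.2 CPM in Sham and 19.4 to 32.4 CPM in RAS (log2 1.10, adjusted p = 0.508), and Cdk1 at 7.66 to 14.2 and 12.2 to 31.1 CPM (log2 0.87, adjusted p = 0.514). Among the other fixed genes the log2 fold change was 0.75 for Rrm2, 0.18 for Tyms, 0.72 for Mcm5, 0.23 for Pcna, 0.06 for Cdt1, 1.00 for Ccne1, -0.44 for Ccne2, 0.70 for E2f1 and 0.93 for Foxm1, with adjusted p-values from 0.509 to 0.963.

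The summed level of the 42 genes was ordered much as that of dendritic cell genes in these libraries. In order of the 6 dendritic cell genes (Flt3, Zbtb46, Cd209a, Xcr1, Clec9a and Ccr7), the CD11chiMϕ libraries were Sham 3, RAS 1, Sham 2, Sham 1, RAS 2, RAS 3 and RAS 4, at 342, 962, 964, 1740, 1930, 4780 and 5080 CPM. Their members summed to 638.3, 1018, 825.1, 1218, 1335, 2059 and 2071 CPM in the same order. Both orders are the same except at RAS 1 and Sham 2, whose dendritic cell sums were nearly equal. The T and NK cell genes did not keep this order, at 16.9, 5.74 and 32.3 CPM in Sham 1 to 3 and 207, 124, 70.3 and 87.9 CPM in RAS 1 to 4, so that every RAS library lay above every Sham library. The fibroblast and pericyte genes also lay higher in every RAS library, at 15.7 to 21.3 CPM in Sham and 25.6 to 272 CPM in RAS. The part of dendritic cells, of T and NK cells and of fibroblasts and pericytes in these values was not tested.

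**Figure D3:**
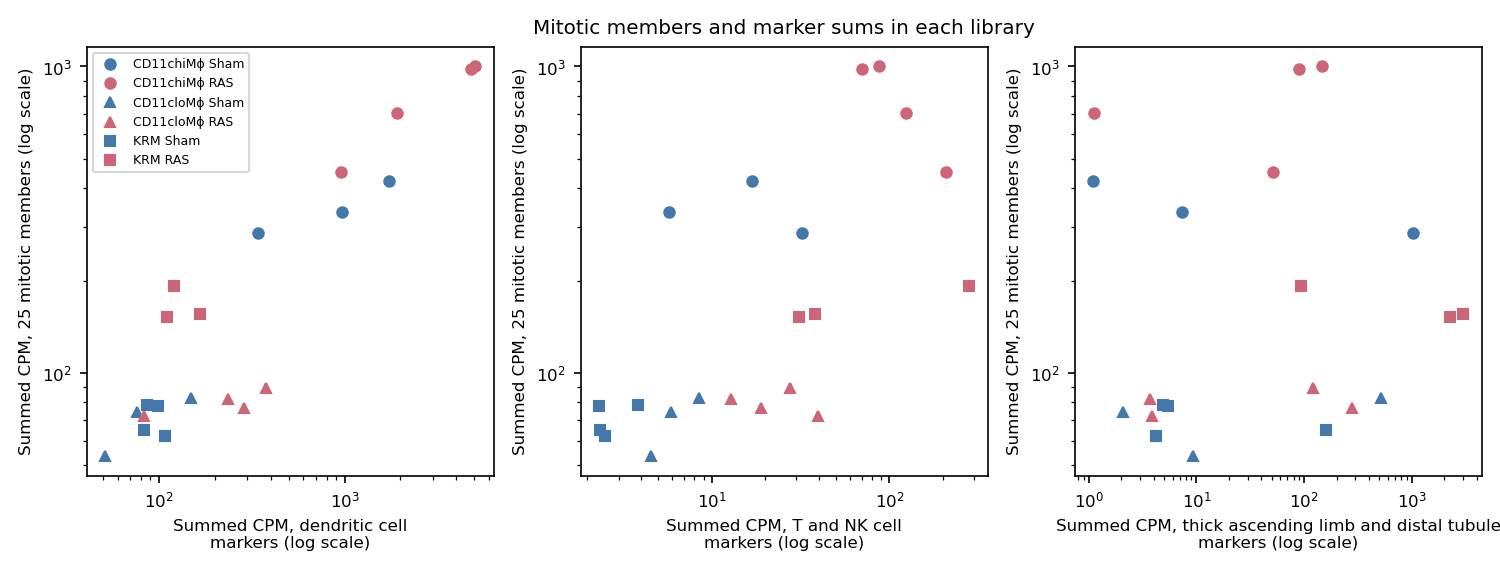
Summed CPM of the 25 mitotic members (vertical, log scale) against the summed CPM of dendritic cell, T and NK cell, and thick ascending limb and distal tubule markers (horizontal, log scale) in each of the 21 libraries, with circles for CD11chiMϕ, triangles for CD11cloMϕ and squares for KRM, blue for Sham and red for RAS. The CD11chiMϕ points tend to climb with the dendritic cell sum, but RAS 1 (452 CPM) lies above Sham 1 (423 CPM) at a lower dendritic cell sum. The 3 KRM RAS squares lie at 152 to 192 CPM with T and NK cell sums from 30.9 to 282 CPM.

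In CD11cloMϕ, 35 members had enough counts for the test of RAS against Sham and 0 passed with edgeR, as did 0% of the 12301 genes tested. DESeq2 and limma on the log2 table called 0 members, and 3 of 35 had an unadjusted p under 0.05 (Mcm2, Mcm6 and Cdk1), a share near the 8.96% of all genes. The 7 not tested were Ube2c, Bub1, Ttk, Kif2c, Nusap1, Cenpf and Hmmr, all mitotic. The RAS libraries all lay above Sham for 1 member, Cdk1, against 4.46% of all genes, at 0.414, 0 and 0.553 CPM in Sham and 1.03, 1.91, 3.39 and 1.7 CPM in RAS (log2 2.56, standard error 0.99, adjusted p = 0.553). Mki67 overlapped, at 5.58, 14.5 and 9.06 CPM in Sham and 9.06, 19, 11.9 and 15.9 CPM in RAS (log2 0.51, adjusted p = 0.703). Top2a was at 1.55 to 4.17 CPM in Sham and 3.19 to 10.6 CPM in RAS (log2 1.05, adjusted p = 0.587). The other fixed genes had log2 fold changes from -0.20 (Cdt1) to 1.14 (Ccnb1 and Foxm1), with adjusted p-values from 0.703 to 0.985.

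An interaction term tested whether the RAS response differed between populations, and 0 of 42 members passed with edgeR in each of the 3 tests. Between KRM and CD11chiMϕ 0% of all genes passed, with an unadjusted p under 0.05 for 1 member and for 21.2% of all genes. The member was Kif2c (log2 1.68, standard error 0.486, adjusted p = 0.105). Between KRM and CD11cloMϕ 0.245% of all genes passed, and 8 of 42 members had an unadjusted p under 0.05, against 23.7% of all genes, led by Ccna2 (log2 2.23, standard error 0.524, adjusted p = 0.0733) and Ube2c (log2 3.09, adjusted p = 0.0906). Between CD11chiMϕ and CD11cloMϕ 0% passed, with 5 members at an unadjusted p under 0.05 (Ube2c, Ccna2, Aurkb, Prc1 and Bub1b) and 6.65% of all genes. DESeq2 called 1 member (Kif2c), 2 (Ccna2 and Ube2c) and 0 in the 3 tests, limma on the log2 table called 0, and without KRM RAS 1 edgeR called 1 (Ccna2) between KRM and CD11cloMϕ. Over all genes DESeq2 had 1107 higher and 163 lower of 21959 tested between KRM and CD11chiMϕ and 906 higher and 488 lower of 21874 between KRM and CD11cloMϕ, and edgeR without KRM RAS 1 had 1205 higher and 1152 lower of 14638 in the second. The calls in KRM and their lack in the other populations are therefore not shown to differ.

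**Figure D4:**
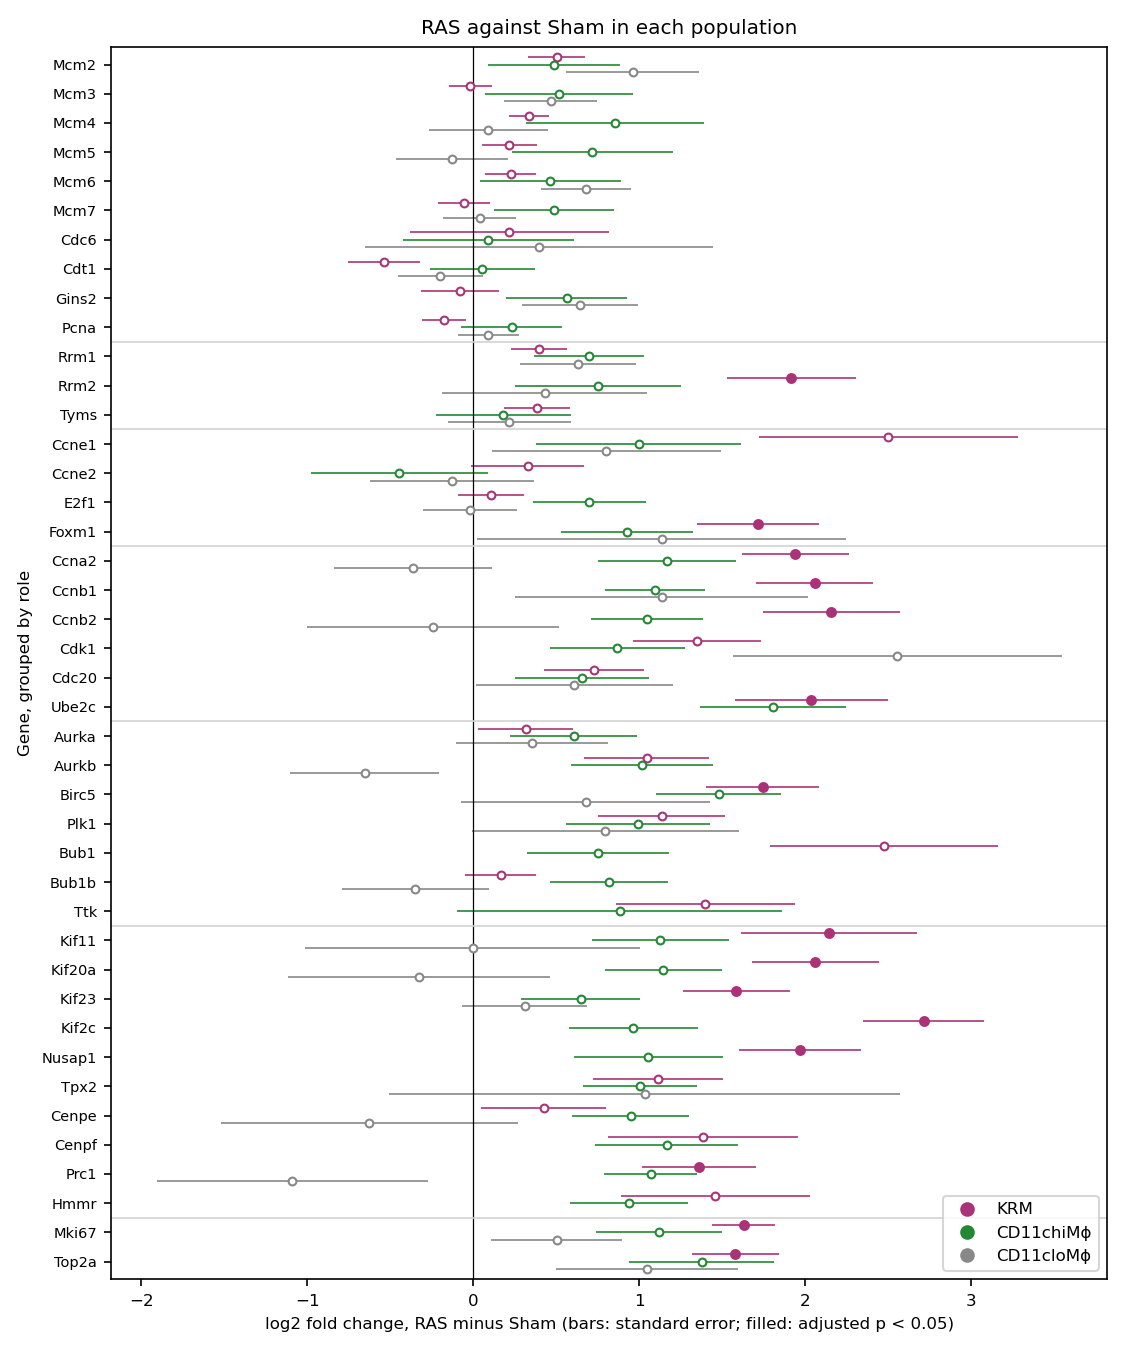
Log2 fold change of RAS over Sham for each of the 42 genes (rows, by role) in KRM, CD11chiMϕ and CD11cloMϕ, with bars of 1 standard error and filled points for an adjusted p under 0.05. Only KRM has filled points, 15 of them; missing points were not tested.

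In Sham kidneys the populations were compared with each other, in comparisons that share libraries. KRM had 26 of 41 tested members lower than CD11chiMϕ and 0 higher, where 4.12% of all genes were lower. The 26 were 23 of the mitotic members with Rrm2, Foxm1 and Ccne1, and none of the 10 licensing and replication genes passed. In 29 of the 42 every KRM library lay below every CD11chiMϕ library, against 10.9% of all genes. The largest differences were those of Ccne1 (log2 -3.77, adjusted p = 0.0496), Bub1 (log2 -3.59, adjusted p = 0.035), Nusap1 (log2 -3.43, adjusted p = 0.00347), Ccnb2 (log2 -3.33, adjusted p = 0.00719), Kif2c (log2 -3.14, adjusted p = 0.00635) and Ube2c (log2 -3.10, adjusted p = 0.0146). Nusap1, which bundles spindle microtubules, was at 1.05 to 1.44 CPM in KRM and 9.03 to 14.9 CPM in CD11chiMϕ. Ccne1 and Bub1 had 0 to 10 and 1 to 17 counts per KRM library, so the size of their fitted fold rests on few reads. Whether replicate numbers pair the Sham libraries of different populations is not settled. A fit with a replicate block called 3 members in place of 26. With that block the genes lower over the whole table went from 511 to 87 and the median log2 of the members from -2.25 to -2.18. Without CD11chiMϕ Sham 1, 9 were called, and without KRM Sham 1, 2, 3 or 4 the counts were 14, 10, 11 and 13.

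Of the 74 further cell cycle genes tested here, 19 were lower and 2 were higher in KRM, where 1.00% of all genes were higher. The mitosis phosphatase gene Cdc25c (log2 -5.60, adjusted p = 0.0181), Pbk (log2 -3.63, adjusted p = 0.0375) and the chromosome motor gene Kif4 (log2 -3.59, adjusted p = 0.0421) were lower. Cdk6 (log2 1.16, adjusted p = 0.035) and Myc (log2 0.84, adjusted p = 0.0308) were higher. Dendritic cell genes differed in the same direction, with 4 of 6 lower in KRM and 83.4 to 108 CPM in KRM against 342 to 1740 CPM in CD11chiMϕ. T and NK cell genes summed to 2.33 to 3.85 and 5.74 to 32.3 CPM (1 of 1 tested lower), neutrophil genes to 0.499 to 3.25 and 9.6 to 47.3 CPM (2 of 2 tested lower), both without overlap, and 4 of 6 classical monocyte genes were lower. Their part was not tested.

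KRM of Sham kidneys were also compared with CD11cloMϕ. Of 36 members tested, 12 were higher in KRM and 2 lower, where 19.5% of all genes were higher and 22.3% were lower. Against this background the members lean to the higher side. The 12 were 7 of the 10 licensing and replication genes (Mcm2, Mcm3, Mcm5, Mcm6, Mcm7, Cdt1 and Gins2) with Rrm1, Tyms, Cdk1, Cdc20 and Bub1b. Mcm2 (chr6:88883474-88898780, minus strand), a helicase subunit, was at 23, 25.5, 18.7 and 27.6 CPM in KRM and 8.58, 5.1 and 7.74 CPM in CD11cloMϕ (log2 1.70, standard error 0.236, adjusted p = 0.000755). Mcm6 was at 44.6 to 65 CPM in KRM and 18.5 to 24.8 CPM in CD11cloMϕ (log2 1.41, adjusted p = 0.000506), and Mcm3 had a log2 fold change of 1.16 (adjusted p = 0.000205). Cdk1 (log2 2.75, adjusted p = 0.0285), Cdc20, which activates the anaphase-promoting complex (log2 1.83, adjusted p = 0.00658), and Tyms (log2 1.14, adjusted p = 0.0103) were also higher.

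Both members that were lower in KRM, Kif23 and Aurkb, act at the spindle midzone. Kif20a and Prc1, which do so as well, were not called (log2 -0.555 and -0.442, adjusted p = 0.58 and 0.493). Midzone genes were not tested as a set. Kif23, the motor of centralspindlin (chr9:61915905-61946774, minus strand), was at 1.93, 3.17, 3.29 and 4.81 CPM in KRM and 8.69, 14.7 and 19.5 CPM in CD11cloMϕ, without overlap (log2 -2.12, standard error 0.376, adjusted p = 0.00266). The kinase gene Aurkb was at 1.99 to 4.45 CPM in KRM and 8.62 to 10.4 CPM in CD11cloMϕ (log2 -1.65, adjusted p = 0.00616). Among the 65 further genes tested, 18 were higher and 9 lower in KRM, and Racgap1, the partner of Kif23 in centralspindlin, was among the lower ones (log2 -2.91, adjusted p = 5.96e-06) with the Cdk4/6 inhibitor gene Cdkn2d (log2 -3.45, adjusted p = 3.08e-05) and the D-type cyclin gene Ccnd3 (log2 -3.24, adjusted p = 2e-05). Ccnd2 (log2 3.49, adjusted p = 1.91e-05), the DNA repair gene Rad51ap1 (log2 3.18, adjusted p = 0.0164) and Cdk6 (log2 3.08, adjusted p = 3.36e-06) were higher. The member count ranged from 10 to 15 when single libraries were left out. Neutrophil genes summed to 0.499 to 3.25 CPM in KRM and 94.8 to 475 CPM in CD11cloMϕ (2 of 2 tested lower), classical monocyte genes to 561 to 852 and 4050 to 12900 CPM (6 of 6 lower), and B and plasma cell genes to 414 to 522 and 13.4 to 47.7 CPM (3 of 4 tested higher). Their part was not tested. A fit with a replicate block called 10 of the 14, and Cdk1 was not among them (adjusted p = 0.0812).

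CD11chiMϕ of Sham kidneys had 9 of 41 members higher than CD11cloMϕ and 0 lower, where 0.917% of all genes were higher and the median log2 fold change was 0.134 over all genes and 2.32 over the members. They were Mcm2, Ccna2, Ccnb1, Cdc20, Birc5, Bub1b, Nusap1, Hmmr and Top2a. In 36 of 42 every CD11chiMϕ library lay above every CD11cloMϕ library, against 12.4% of all genes. Top2a was at 47.4, 30.1 and 21.3 CPM in CD11chiMϕ and 3.41, 4.17 and 1.55 CPM in CD11cloMϕ (log2 3.49, standard error 0.479, adjusted p = 0.034). Nusap1 (log2 5.26, adjusted p = 0.0344), the spindle protein gene Hmmr (log2 4.88, adjusted p = 0.0284), Birc5 (log2 3.88, adjusted p = 0.032), Ccnb1 (log2 3.78, adjusted p = 0.04) and Cdc20 (log2 3.24, adjusted p = 0.0208) were also among the largest. Nusap1 and Hmmr had 1 to 6 and 1 to 4 counts per CD11cloMϕ Sham library, so the size of their fitted fold rests on few reads. Of 73 further genes tested 8 were higher and 0 lower, among them the spindle gene Dlgap5 (log2 4.80, adjusted p = 0.0368) and the D-type cyclin genes Ccnd1 (log2 3.85, adjusted p = 0.0296) and Ccnd2 (log2 3.83, adjusted p = 0.0204). Dendritic cell genes summed to 342 to 1740 CPM in CD11chiMϕ and 51.3 to 149 CPM in CD11cloMϕ, without overlap and with 1 of 6 called higher. B and plasma cell genes were also higher without overlap (196 to 818 and 13.4 to 47.7 CPM). Classical monocyte genes (387 to 2240 and 4050 to 12900 CPM) and neutrophil genes (9.6 to 47.3 and 94.8 to 475 CPM) were lower without overlap. The part of these cells was not tested. A fit with a replicate block called 20 members. Without CD11chiMϕ Sham 1 or 2, or without any one of the 3 CD11cloMϕ Sham libraries, 0 members and 0 of all genes were called, with a median log2 of the members of 2.11 to 2.47, while 19 members were called without CD11chiMϕ Sham 3 and 31 without replicate 3 of both populations.

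In RAS kidneys KRM again had members lower than CD11chiMϕ, 27 of 42 with 0 higher, where 5.07% of all genes were lower. In 34 the libraries did not overlap, against 15.8% of all genes. The largest differences were those of Ube2c (log2 -2.96, adjusted p = 0.0197), the kinetochore gene Cenpf (log2 -2.74, adjusted p = 0.0247), Birc5 (log2 -2.67, adjusted p = 0.0166), Nusap1 (log2 -2.60, adjusted p = 0.0282), Mki67 (log2 -2.58, adjusted p = 0.0222) and Aurkb (log2 -2.47, adjusted p = 0.0197). Ube2c was at 6.38, 3.91 and 4.76 CPM in KRM and 17.9, 35.4, 57 and 52.7 CPM in CD11chiMϕ. Mcm5 was the 1 licensing and replication gene called (log2 -1.42, adjusted p = 0.0355). Of 75 further genes 26 were lower and 0 higher, led by Cdkn2d (log2 -2.55, adjusted p = 0.0117), the Cdk subunit gene Cks1b (log2 -2.47, adjusted p = 0.019) and the mitotic motor gene Kif15 (log2 -2.39, adjusted p = 0.03). Dendritic cell genes summed to 110 to 167 CPM in KRM and 962 to 5080 CPM in CD11chiMϕ, with 4 of 6 called lower in KRM. Neutrophil genes were also lower in KRM without overlap (0.641 to 4.52 and 5.1 to 112 CPM). Proximal tubule genes (458 to 710 and 93 to 375 CPM) and erythroid genes (181 to 277 and 7.29 to 109 CPM) were higher without overlap. The part of these cells was not tested. Without CD11chiMϕ RAS 2, 12 members were called, and without CD11chiMϕ RAS 3 or 4, KRM RAS 2 or 3, or replicate 3 of both, 0 were called. With these libraries left out and 0 members called, 0 to 50 of all genes were lower, and the median log2 of the members was -1.81 to -1.64, against -1.85 with all libraries. Without KRM RAS 1, 27 were called, 26 of them shared.

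Against CD11cloMϕ of RAS kidneys 7 of 42 members were higher in KRM and 0 lower, where 3.28% of all genes were higher, and in 28 every KRM library lay above every CD11cloMϕ library, against 13% of all genes. Of the 7, Tyms belongs to nucleotide supply, and Ccna2, Cdc20, Ube2c, Bub1, Kif20a and Kif2c are mitotic. Ube2c was at 6.38, 3.91 and 4.76 CPM in KRM and 0.515, 1.07, 0.226 and 0.73 CPM in CD11cloMϕ (log2 2.99, standard error 0.59, adjusted p = 0.0329). Bub1 was at 3.11 to 3.99 CPM in KRM and at 0 counts in 2 of 4 CD11cloMϕ libraries (0 to 0.452 CPM), with a fitted log2 fold change of 4.52 (adjusted p = 0.0402) that depends on the prior count. Kif2c (log2 2.34, adjusted p = 0.0499), Ccna2 (log2 2.10, adjusted p = 0.0294), Cdc20 (log2 1.90, adjusted p = 0.0471) and Kif20a (log2 1.82, adjusted p = 0.0465) followed. None of the 10 licensing and replication genes passed with edgeR (median log2 0.45, unadjusted p under 0.05 for 4, against 32.9% of all genes). Those 4, Mcm7, Mcm5, Mcm6 and Mcm2, had adjusted p-values from 0.0527 to 0.0622, with every KRM library above every CD11cloMϕ library. Kif23 had a log2 fold change of -0.93 with every KRM library below CD11cloMϕ (adjusted p = 0.103). Proximal tubule genes summed to 458 to 710 CPM in KRM and 12.3 to 267 CPM in CD11cloMϕ (0 called). Erythroid genes summed to 181 to 277 and 14.1 to 133 CPM (0 called). Thick ascending limb and distal tubule genes summed to 93.8 to 3020 and 3.7 to 278 CPM (1 of 5 higher). T and NK cell genes were at 30.9 to 282 and 12.9 to 39.4 CPM (2 of 7 higher). Neutrophil genes were at 0.641 to 4.52 and 341 to 1860 CPM (3 tested, all lower). Classical monocyte genes were at 564 to 988 and 2810 to 6670 CPM, without overlap. Their part was not tested. Without CD11cloMϕ RAS 2 or 4, KRM RAS 2 or 3, or replicate 3 of both, 0 members were called, without CD11cloMϕ RAS 1, 1 was, and without CD11cloMϕ RAS 3, 15 were. With these libraries left out and 0 members called, 0 to 34 of all genes were higher, and the median log2 of the members was 1.31 to 1.53, against 1.42 with all libraries. Without KRM RAS 1, 6 of the 7 were called.

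In 4 roles every gene was tested in both comparisons with CD11cloMϕ. The median log2 fold change of the 10 licensing and replication genes, all tested in both, was 0.84 in Sham and 0.45 in RAS. That of the mitotic cyclin role, with all 6 genes tested in both, was 0.27 in Sham and 1.93 in RAS. The 3 nucleotide supply genes had medians of 0.93 and 1.24, and Mki67 and Top2a medians of 0.13 and 0.91. The 2 comparisons share no libraries, and the difference between them is the interaction given above, in which 0 members passed. Of 73 further genes tested in RAS 6 were higher in KRM and 4 lower, where 5.89% of all genes were lower. They were led by the spindle gene Ckap2 (log2 3.96, adjusted p = 0.0466), Nuf2 (log2 2.58, adjusted p = 0.0355) and Kif4 (log2 2.31, adjusted p = 0.043), and by Cdkn2d (log2 -2.80, adjusted p = 0.0159), Cks2 (log2 -2.28, adjusted p = 0.0135) and Ccnd3 (log2 -2.13, adjusted p = 0.0377).

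**Figure D5:**
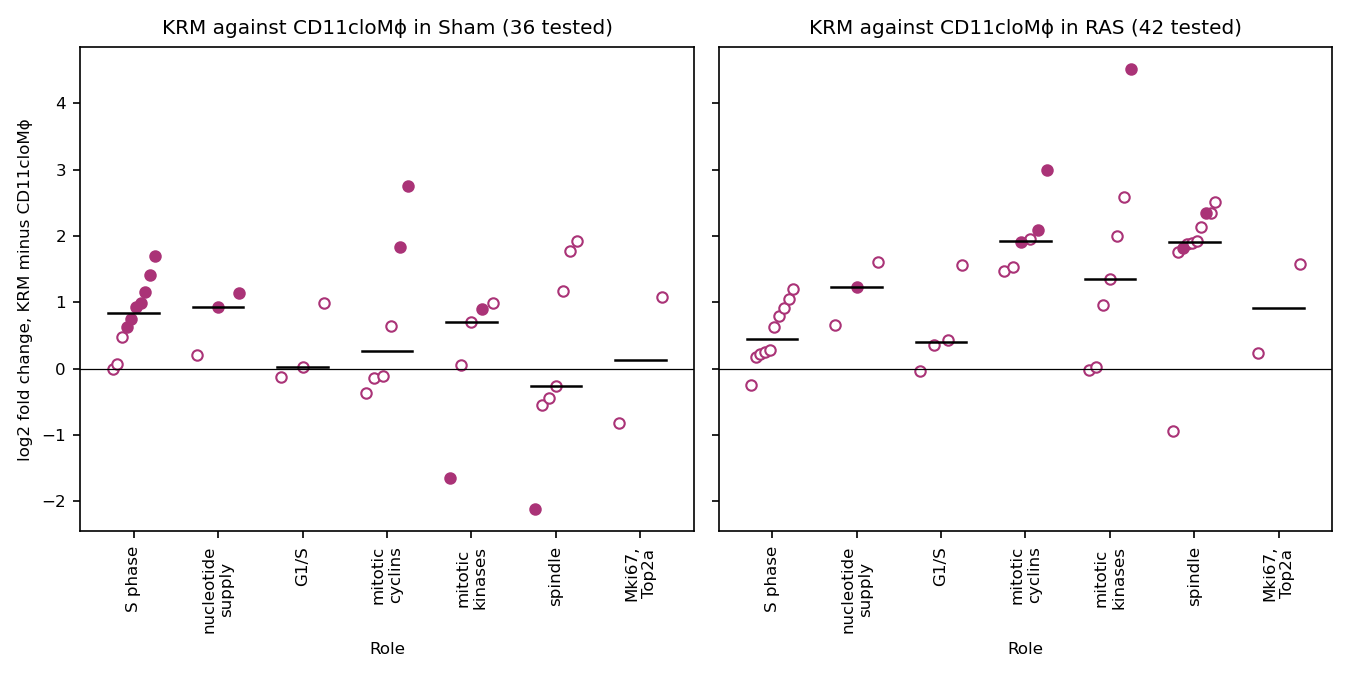
Log2 fold change of KRM over CD11cloMϕ for each tested member (points, filled for an adjusted p under 0.05) by role, with the median as a bar, in Sham (left, 36 tested) and RAS kidneys (right, 42 tested). In Sham 7 licensing and replication genes are filled at a role median of 0.84, and the cyclin role has a median of 0.27 in Sham and 1.93 in RAS. The G1/S, mitotic kinase and spindle roles have fewer genes tested in Sham than in RAS, so their bars are not comparable between panels.

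CD11chiMϕ and CD11cloMϕ of RAS kidneys differed most, with 34 of 41 tested members higher in CD11chiMϕ and 0 lower, where 5.15% of all genes were higher. In 37 the libraries did not overlap, against 9.35% of all genes. Not called were Mcm4, Cdt1, Gins2, Pcna, Ccne2, E2f1 and Kif23. Ube2c was at 17.9, 35.4, 57 and 52.7 CPM in CD11chiMϕ and 0.515, 1.07, 0.226 and 0.73 CPM in CD11cloMϕ (log2 5.97, standard error 0.527, adjusted p = 0.00138). Birc5 was at 21.8 to 51.2 and 0.618 to 3.22 CPM (log2 4.70, adjusted p = 0.00281), and Nusap1 (log2 5.12, adjusted p = 0.00332) and Ccnb2 (log2 4.25, adjusted p = 0.00348) were also higher. Bub1 and Cenpf, with fitted log2 fold changes of 6.46 (adjusted p = 0.0045) and 5.07 (adjusted p = 0.00626), were at 0 counts in 2 and 1 of the 4 CD11cloMϕ libraries. Of 73 further genes 42 were higher and 0 lower, led by Ckap2 (log2 6.03, adjusted p = 0.0045), the replication checkpoint gene Clspn (log2 5.41, adjusted p = 0.0103) and Nuf2 (log2 4.66, adjusted p = 0.00189). Dendritic cell genes were higher in CD11chiMϕ as well, at 962 to 5080 CPM against 83.3 to 376 CPM, with 5 of 6 called, and T and NK cell genes had 5 of 6 tested called. Classical monocyte genes (627 to 1790 against 2810 to 6670 CPM) and neutrophil genes (5.1 to 112 against 341 to 1860 CPM) were lower in CD11chiMϕ without overlap. Their part was not tested. With 10 counts required in every library 17 members were called, and 25 to 35 were called when libraries were left out.

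The summed level of all 42 genes was ordered in Sham kidneys as follows: CD11chiMϕ at 893.6 ± 296 CPM (SD, n = 3), KRM at 481.2 ± 34 CPM (SD, n = 4) and CD11cloMϕ at 330.9 ± 37.2 CPM (SD, n = 3), with no overlap between neighbours. In RAS kidneys they were at 1621 ± 529 CPM (SD, n = 4), 588.9 ± 40.1 CPM (SD, n = 3) and 392.4 ± 77.3 CPM (SD, n = 4), again without overlap. That order is of the whole sum and did not hold for each role. The mitotic members of Sham kidneys overlapped between KRM (62.1 to 78.7 CPM) and CD11cloMϕ (53.3 to 82.7 CPM), as did the licensing and replication genes of RAS kidneys (319 to 352 CPM in KRM and 190 to 338 CPM in CD11cloMϕ).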

How the data were processed

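The authors deposited a table of estimated counts for each gene, without depth scaling and some with fractions, and a second table of log2 values of quantile-normalized TPM, which holds 41 of the 42 members (Ttk is not listed). Per the study's methods, SMART-Seq v4 and Nextera XT libraries were aligned with OSA to mm10 and assigned to Ensembl genes, and DESeq2 is named in the submitters' notes. Whether strand was used in counting is not given in the sources used here.

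Counts were rounded and lines of one symbol summed. edgeR 4.0.16 was run with TMM factors, filterByExpr (minimum count 10, minimum total 15) and the two-sided quasi-likelihood F test on the groups compared, with Benjamini-Hochberg adjustment over all genes tested. CPM uses TMM factors over all 21 libraries, and positions are GENCODE vM21 on GRCm38. Members, lists and rules were chosen with earlier results of these data known. Named genes are 14 fixed members in RAS against Sham, up to 6 called members per direction in each comparison, the 5 highest and 5 lowest members, and up to 3 further genes per direction; genes in counts of 5 or fewer and others singled out were named after their values were seen. Where a gene had several promoter windows the first listed was used.

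Same-numbered Sham libraries of different populations deviated together from their group means (r from 0.201 to 0.647 over 9 pairs). The highest r were those of replicate 3 (0.542 to 0.647). CD11chiMϕ Sham 1 deviated most like CD11cloMϕ Sham 2 and KRM Sham 4, and CD11chiMϕ Sham 2 most like CD11cloMϕ Sham 1. In RAS and between treatments at least 1 r of each comparison was under 0.1. CD11cloMϕ RAS 1, 2 and 3 still deviated most like KRM RAS 1, 2 and 3. Whether replicate numbers pair libraries is therefore not settled. Alternatives were other scalings, filters, 1 fit over all groups, DESeq2 1.42.0, a fit with a replicate block, limma 3.58.1 (for the log2 table) and each library left out; limma without KRM RAS 1 was chosen after seeing the data. The steps were tested on simulated data.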

Additional observations from a re-analysis of the deposited data

Results flagged for a closer look

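One value was far from the others of its group. Rrm1 in KRM Sham 1 was at 25.1 CPM, where the other KRM Sham libraries were between 33.6 and 35.1 CPM, so that the gap took 0.851 of the range. In 129 tests of this kind (43 levels in 3 groups of 4 libraries) 1 value was marked, and chance alone marks about 1 in 20. In the comparison of KRM RAS with Sham, Rrm1 had a log2 fold change of 0.40 and was not called.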

How the results depend on the processing

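Direction did not reverse for any of the 132 calls of a member over 7 comparisons, in 2124 values under the alternatives run. The number of members called moved by over 1.5 times under 25 settings that leave no library out and stayed within it under 76. For KRM RAS against Sham (15) it was 9 with 10 counts in every library, 2 with limma on the log2 table and 0 with the replicate block, and 0 to 18 when libraries were left out. For CD11chiMϕ RAS against Sham (0) it was 2 with DESeq2. For KRM against CD11chiMϕ in Sham (26) it was 15 with 10 counts in every library, 16 with limma and 3 with the replicate block, and 9 to 30 with libraries left out. For KRM against CD11cloMϕ in Sham (14) it was 10 to 15 with libraries left out. For CD11chiMϕ against CD11cloMϕ in Sham (9) it was 29 in 1 fit over all groups, 28 with DESeq2, 3 with limma, 2 with no filter and 20 with the replicate block, and 0 to 31 with libraries left out. For KRM against CD11chiMϕ in RAS (27) it was 12 with limma (27 without the mismatched column of KRM RAS 1) and 0 with the replicate block, and 0 to 30 with libraries left out. For KRM against CD11cloMϕ in RAS (7) it was 16 in 1 fit, 22 with DESeq2, 0 with limma (5 without the column of KRM RAS 1), 3 with no filter, 1 with the replicate block and 15 with total library size, and 0 to 15 with libraries left out. For CD11chiMϕ against CD11cloMϕ in RAS (34) it was 17 with 10 counts in every library, which tests fewer genes, and 25 to 35 with libraries left out. For the difference in response between KRM and CD11chiMϕ (0) it was 1 with DESeq2, and between KRM and CD11cloMϕ (0) it was 1 with 10 counts in every library, 2 with DESeq2 and 3 with limma without KRM RAS 1, and 0 to 1 with libraries left out. The causes were not tested. With total library size the median log2 fold change of all genes became 0.265 for KRM against CD11chiMϕ and 0.267 for KRM against CD11cloMϕ in RAS, from 0.032 and 0.056. Whether the replicate numbers pair libraries is not settled in any comparison, so the fit with the replicate block stands as an alternative. The block moved no other count by over 1.5 times.

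Limits: groups hold 3 or 4 libraries, KRM RAS 1 does not match between both tables, and markers of other cells moved with RAS. The effect of depth on members with few counts was not tested.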
